A study of Mus musculus with 2 samples.

Results

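The 33 genes described here code for the chaperones of the endoplasmic reticulum (ER) and for the unfolded protein response, the programme that tunes the folding capacity of that compartment. They were chosen by symbol, and all 33 were found among the 31053 genes of the count tables. By role they are 16 chaperones, folding enzymes and translocon subunits, 6 degradation genes, 3 sensors, 3 stress transcription factors and 5 targets of the factor ATF4. The data are 2 droplet single-cell RNA libraries of mouse lung, 1 labelled wild type (WT) and 1 labelled p47phox-KI (KI). Both lungs are from the C57BL/6 strain and carry the disease label acute lung injury. p47phox is the product of Ncf1, a cytosolic subunit of the phagocyte NADPH oxidase, the enzyme of the oxidative burst. The labels do not state how Ncf1 was modified, the agent of injury, the time after it, the number of animals behind a library, or their age and sex. Both lungs went through perfusion, collagenase digestion, lysis of erythrocytes, labelling of dead cells and of CD45.2, a leukocyte surface protein, and a sort whose gate is not stated. The series sets expression in the 2 genotypes side by side, cell by cell.

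Proteins bound for the cell surface or for secretion enter the ER through the Sec61 translocon and are folded there by BiP (Hspa5), GRP94 (Hsp90b1), the lectin chaperones calreticulin (Calr) and calnexin (Canx) and the protein disulfide isomerases. When unfolded protein builds up, BiP leaves the membrane sensors IRE1 alpha (Ern1), PERK (Eif2ak3) and ATF6 (Atf6). IRE1 alpha splices the messenger of Xbp1, ATF6 is cut into a transcription factor, and both raise chaperone and degradation genes. PERK phosphorylates eIF2 alpha, which slows translation but favours ATF4 and, after it, CHOP (Ddit3). In the lung the programme is best known from type 2 alveolar cells, which secrete surfactant proteins, and from fibroblasts, which secrete collagen.

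Each library gave one value per cell class, so no test across animals is possible and none was made. UMIs (unique molecular identifiers, one per captured transcript) were summed per library and class and given as CPM, counts scaled to the total UMIs of that class. A difference is the log2 ratio of the KI over the WT level. Values in parentheses after a ratio are its exact 95% counting interval, which covers counting error only and says nothing of the spread between animals. A gene counts as measured in a class with at least 20 UMIs over both libraries, and as lower or higher past a log2 ratio of 0.5.

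The deposited barcodes numbered 10473 (WT) and 9120 (KI) and held 43376713 and 43445797 UMIs. The median UMIs per barcode were 2994 (WT) and 3391 (KI), and the median genes 1540 and 1689.5. After the filters 7735 WT and 6636 KI cells were kept, and 30 barcode sequences occurred in both libraries. Ncf1 gave 228 UMIs in WT and 213 in KI over all barcodes, a log2 ratio of −0.10 (−0.38 to 0.18); a tag near the transcript's end need not cover the modified part, so this does not check the labels. In KI, 69 of 125 leukocytes (55.2%) carried a UMI of 4 Y-linked genes, against 18 of 6511 other kept cells (0.277%) and 2 of 239 WT leukocytes (0.837%). The X-linked RNA Xist was found in 14.4% of KI leukocytes and 88.4% of other kept KI cells, and in 53.6% and 85.6% in WT. The KI leukocytes thus stood apart from the other KI cells in sex-linked transcripts and are given as levels only. Whether the KI label holds alike for both groups of cells was not tested. Clustering without the 33 genes gave 29 clusters, of which 27 could be named from markers. Comparisons were made in the 5 cell classes that reached 100 cells in both libraries: endothelial-like (4414 WT and 3623 KI cells), fibroblast-like (1413 and 1186), smooth muscle or pericyte-like (501 and 532), type 2 alveolar-like (455 and 570) and type 1 alveolar-like (433 and 255). No defining marker of a class was at 0 in that class, but neither was any marker of the other compared classes. The classes were named from these markers, so this does not check the names. In type 1 alveolar-like cells the KI library held more marker RNA of other classes, with 5059 CPM against 1163 in WT summed over 9 type 2 alveolar markers, 2021 against 658 over 10 endothelial markers and 1155 against 278 over 9 fibroblast markers. The 9 type 2 alveolar markers also summed to 686 CPM (WT) and 1347 CPM (KI) in endothelial-like cells and to 1717 and 882 CPM in smooth muscle or pericyte-like cells. The part of this RNA in the values of these 3 classes was not tested. The type 2 alveolar class takes in a cluster of low depth with 5 WT and 95 KI cells, without which its ratios of Hspa5 and Xbp1 were −0.22 and −0.57.

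Promoter sequences are shown first because 4 of the 5 chaperones that read lower in KI endothelial-like cells (Calr, Creld2, Hspa5 and Pdia6) carry one element in common. That element is frequent among the chaperones at any ratio, in 7 of the 14 with a promoter sequence here. The ER stress response element (ERSE), which ATF6 and XBP1 are known to bind together with the CCAAT factor NF-Y, was searched on both strands, as CCAAT and CCACG spaced 9 bases apart, in RefSeq promoters of GRCm38.p6, from 250 bases before to 50 bases after each start. Of the 33 genes, 29 are in the promoter table, Manf not among them, and 8 of these 29 held an ERSE, against 37 of all 27025 genes (0.137%). The 33 genes were chosen by role, so these shares describe the list and are no test. The matches are given 5′ to 3′ in the direction of the element, with the fixed letters in capitals and bases numbered from the start site, the base just before it being −1.
Hspa5, bases −65 to −47: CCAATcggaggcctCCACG
Hsp90b1, bases −212 to −194: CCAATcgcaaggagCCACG
Hsp90b1, bases −107 to −89: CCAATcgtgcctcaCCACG
Calr, bases −162 to −144: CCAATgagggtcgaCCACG
Canx, bases −145 to −127: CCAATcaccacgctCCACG
Pdia6, bases −98 to −80: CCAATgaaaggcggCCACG
Creld2, bases −126 to −108: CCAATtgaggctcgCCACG
Dnajc3, bases −105 to −87: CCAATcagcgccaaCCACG
Syvn1, bases −44 to −26: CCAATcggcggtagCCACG

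Hsp90b1 held 2 copies and each of the other genes 1. All but Syvn1, a ubiquitin ligase of ER-associated degradation, are chaperones or folding enzymes, which makes 7 of the 14 chaperones in the table. The related element ERSE-II, ATTGG and CCACG spaced 1 base apart, was found in Herpud1 and Dnajb11, against 0.0444% of all genes. The XBP1 element TGACGTGG was found in none of the 29, against 0.714% of all genes, and the ATF4 element TGATGCAA in Herpud1 and Chac1, against 1.03%. A match is a description of letters and not a measured binding site. ERSE and ERSE-II share the letters CCACG, and no member held both.

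The 250 bases before the start of Hspa5 (chr2:34771840-34772089, plus strand, GRCm38.p6) show its ERSE in capitals.
Hspa5: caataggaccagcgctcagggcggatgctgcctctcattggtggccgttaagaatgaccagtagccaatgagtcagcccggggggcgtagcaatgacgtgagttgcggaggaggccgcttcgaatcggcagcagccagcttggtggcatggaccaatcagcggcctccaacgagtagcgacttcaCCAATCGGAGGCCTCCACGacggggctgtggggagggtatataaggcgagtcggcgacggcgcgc

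The same stretch of Hsp90b1 (chr10:86705445-86705694, minus strand) holds its 2 elements in opposite directions, here in capitals over their whole length.
Hsp90b1: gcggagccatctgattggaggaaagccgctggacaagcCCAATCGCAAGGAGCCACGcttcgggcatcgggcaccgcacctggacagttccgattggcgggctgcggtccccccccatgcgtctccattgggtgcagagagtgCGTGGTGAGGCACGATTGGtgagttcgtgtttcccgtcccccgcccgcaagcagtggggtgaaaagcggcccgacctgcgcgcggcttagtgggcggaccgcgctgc

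Herpud1 (chr8:94386179-94386428, plus strand), which passed 0.5 upwards in KI fibroblast-like cells, is shown for contrast. Its capitals mark the ATF4 element on the opposite strand, followed by the ERSE-II.
Herpud1: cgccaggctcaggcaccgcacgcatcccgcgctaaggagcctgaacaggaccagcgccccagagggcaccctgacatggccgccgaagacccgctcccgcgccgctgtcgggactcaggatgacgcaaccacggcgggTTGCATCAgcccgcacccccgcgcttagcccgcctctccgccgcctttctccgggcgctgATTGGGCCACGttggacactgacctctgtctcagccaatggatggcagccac

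Of the 16 chaperones, 5 passed 0.5 downwards in KI endothelial-like cells, 2 in fibroblast-like and 5 in smooth muscle or pericyte-like cells, and none passed it upwards in these 3 classes. The ratio of Xbp1 lay below 0 in each class, past 0.5 in 3 of the 5. All 33 members were measured in endothelial-like cells, where 5 passed 0.5 downwards, all of them chaperones, and 2 upwards, beside 5.97% lower and 12.9% higher of the 13430 genes measured there. In fibroblast-like cells 3 of 32 were lower and 5 higher, beside 7.62% and 18.3% of 11827 genes. In smooth muscle or pericyte-like cells 6 of 30 were lower and 2 higher, beside 8.26% and 15.0% of 10103 genes. Type 2 alveolar-like cells had 1 of 33 lower and 2 higher, beside 4.60% and 14.7% of 11474 genes. Type 1 alveolar-like cells had 1 of 31 lower and 3 higher, beside 11.0% and 21.3% of 9386 genes. All genes measured had a median ratio between 0.05 and 0.09 in these classes, so the libraries were centred near each other.

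**Figure D1:**
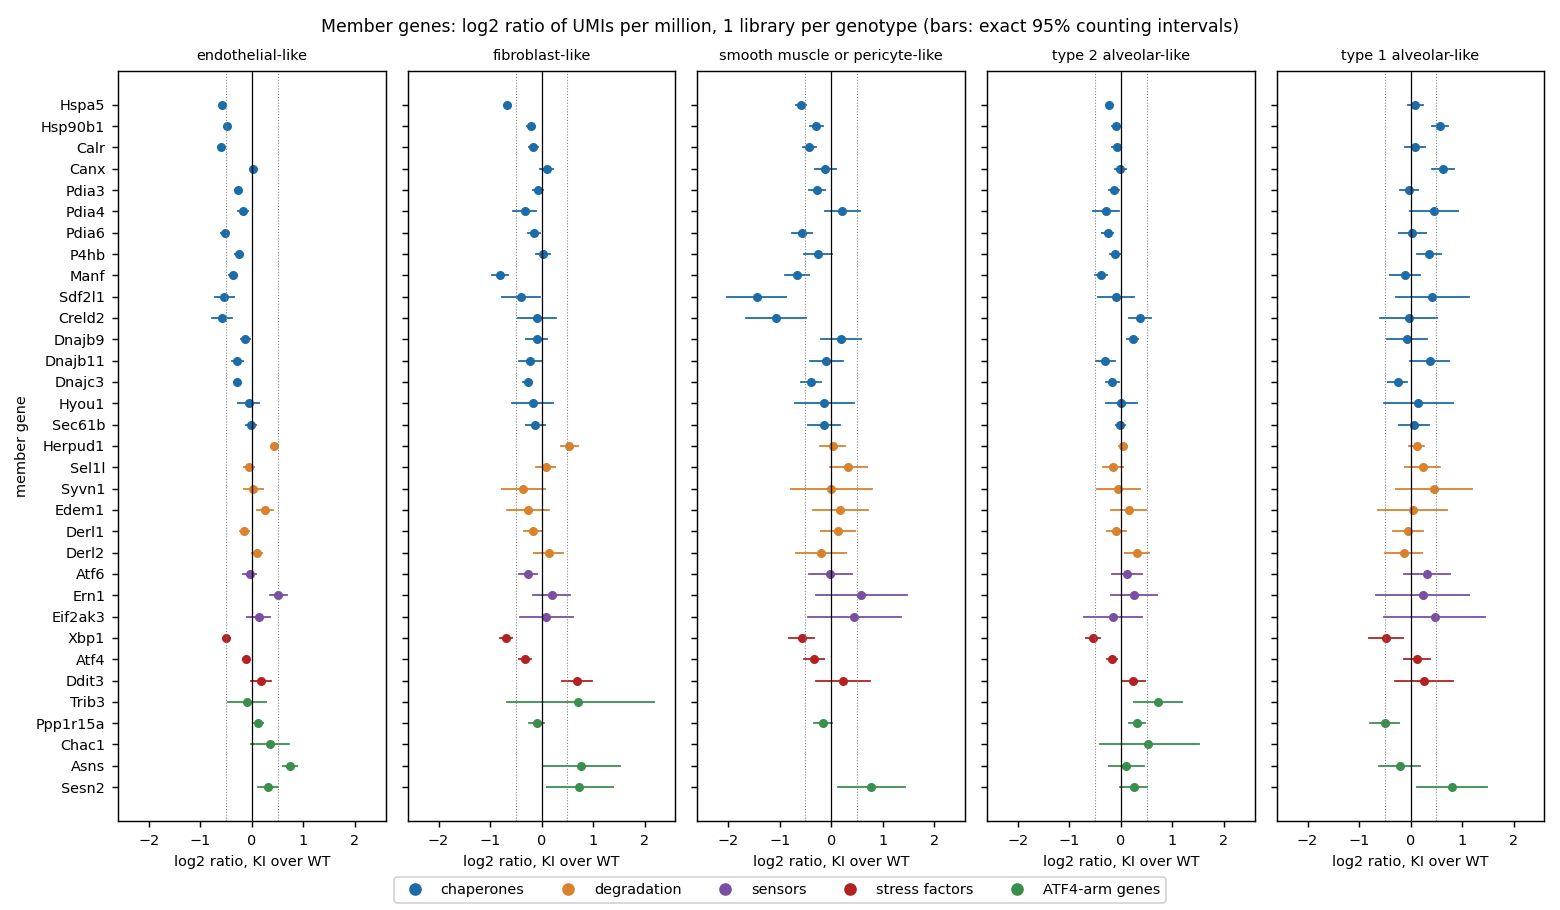
Log2 ratio of the KI over the WT level (x axis) for each of the 33 genes (y axis, coloured by role) in the 5 cell classes. Points are the ratio of CPM values, bars are exact 95% counting intervals, and dotted lines mark 0.5 in both directions. Chaperones lie mostly left of 0 in the first 3 panels, while Ern1 and Asns lie right of 0.5 in endothelial-like cells.

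The 16 chaperones had a median ratio of −0.28 in endothelial-like cells, −0.16 in fibroblast-like, −0.28 in smooth muscle or pericyte-like, −0.10 in type 2 alveolar-like and 0.09 in type 1 alveolar-like cells. In the alveolar classes none was more than 0.5 lower, beside 4.60% of all genes in type 2 and 11.0% in type 1 alveolar-like cells. In type 1 alveolar-like cells 2 were higher, beside 21.3%, and in type 2 alveolar-like cells 0, beside 14.7%. Counting intervals lay wholly below 0 for 13 of the 16 in endothelial-like cells, beside 17.0% of all genes measured there, and for 9 in fibroblast-like cells, beside 12.4%. They did so for 9 in smooth muscle or pericyte-like cells, beside 7.44%, for 9 in type 2 alveolar-like cells, beside 7.94%, and for 1 in type 1 alveolar-like cells, beside 10.0%. Intervals wholly above 0 numbered 2 in type 2 alveolar-like cells, beside 17.2% of all genes, and 3 in type 1 alveolar-like cells, beside 17.1%, with none in the other classes, beside 27.6%, 20.9% and 10.3%. Intervals narrow with the number of UMIs, so these shares are not matched for level. With a stricter cell filter (at least 500 genes, at most 5% mitochondrial UMIs) several fibroblast-like ratios moved towards or past 0. Hsp90b1 went from −0.21 to −0.02, Calr from −0.16 to −0.04, Dnajb11 from −0.22 to −0.07 and Pdia6 from −0.15 to 0.08. Hspa5, Manf, Dnajc3 and Pdia4 read −0.55, −0.66, −0.22 and −0.19 under that filter.

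Hspa5, the main Hsp70 chaperone of the ER, stood at 710 CPM (WT) and 476 CPM (KI) in endothelial-like cells, a ratio of −0.58 (−0.62 to −0.54). In fibroblast-like cells its level was 1299 CPM (WT) and 813 CPM (KI), a ratio of −0.68 (−0.74 to −0.61). Smooth muscle or pericyte-like cells held 1269 and 844 CPM, a ratio of −0.59 (−0.69 to −0.49). These are differences of similar size in 3 cell types. Type 2 alveolar-like cells held 599 and 514 CPM, a ratio of −0.22 (−0.29 to −0.15), and type 1 alveolar-like cells 558 and 595 CPM, a ratio of 0.09 (−0.05 to 0.23). Over all kept cells Hspa5 stood at 779 CPM (WT) and 559 CPM (KI). Among the genes measured, 4.80% had a lower ratio than Hspa5 in endothelial-like cells, 4.39% in fibroblast-like cells and 16.0% in type 2 alveolar-like cells.

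The lectin chaperones Calr and Canx, which hold glycoproteins during folding, went separate ways. Calr stood at 543 CPM (WT) and 358 CPM (KI) in endothelial-like cells, the lowest ratio of any member there at −0.60 (−0.65 to −0.56), while Canx held 241 and 243 CPM. In smooth muscle or pericyte-like cells the ratio of Calr was −0.43 (−0.56 to −0.30) and that of Canx −0.11 (−0.31 to 0.09). Canx was instead higher in KI type 1 alveolar-like cells, at 198 CPM (WT) and 308 CPM (KI), a ratio of 0.64 (0.42 to 0.85), which became 0.37 with barcodes marked as doublets kept. Hsp90b1, the ER member of the Hsp90 family, followed Hspa5 at a smaller size in endothelial-like cells, with 619 CPM in WT, 443 in KI and a ratio of −0.48 (−0.52 to −0.44). In type 1 alveolar-like cells Hsp90b1 read 417 and 619 CPM, a ratio of 0.57 (0.42 to 0.72), which became 0.24 with barcodes marked as doublets kept.

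Of the 4 protein disulfide isomerases, which form and exchange disulfide bonds, Pdia6 alone passed 0.5 in endothelial-like cells. Pdia6 gave 5375 UMIs in WT and 3570 in KI there, a ratio of −0.53 (−0.59 to −0.47), and Pdia3 gave 9528 and 7536 UMIs, a ratio of −0.28 (−0.32 to −0.23). P4hb had a ratio of −0.24 (−0.32 to −0.17) and Pdia4 of −0.17 (−0.28 to −0.07). Pdia6 was the isomerase farthest below 0 in smooth muscle or pericyte-like cells as well, at −0.57 (−0.77 to −0.37). In fibroblast-like cells the 4 isomerases lay between −0.33 and 0.03.

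Manf, Sdf2l1 and Creld2 are small ER proteins known to be induced by stress. Manf, a secreted factor that also binds BiP, stood at 218 CPM (WT) and 125 CPM (KI) in fibroblast-like cells, the lowest ratio of any member there at −0.80 (−0.96 to −0.64). Its ratio was −0.66 (−0.89 to −0.43) in smooth muscle or pericyte-like cells, −0.37 (−0.44 to −0.30) in endothelial-like and −0.38 (−0.49 to −0.28) in type 2 alveolar-like cells. Sdf2l1, a cofactor of BiP, gave 85 UMIs in WT and 40 in KI smooth muscle or pericyte-like cells (59.6 and 22.1 CPM), a ratio of −1.43 (−2.01 to −0.88). Creld2, another stress-inducible ER protein, gave 69 and 42 UMIs there (48.4 and 23.2 CPM), a ratio of −1.06 (−1.65 to −0.49). Both rest on few molecules and have wide intervals. In fibroblast-like cells Sdf2l1 had a ratio of −0.41 (−0.78 to −0.04) and Creld2 one of −0.09 (−0.45 to 0.28). In endothelial-like cells Sdf2l1 and Creld2 had ratios of −0.53 (−0.71 to −0.36) and −0.58 (−0.78 to −0.39), whereas type 2 alveolar-like cells held 47.7 CPM (WT) and 61.7 CPM (KI) of Creld2.

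The J-domain partners of BiP differed less. Dnajc3 had a ratio of −0.29 (−0.35 to −0.23) in endothelial-like cells, −0.27 in fibroblast-like, −0.39 in smooth muscle or pericyte-like, −0.17 in type 2 alveolar-like and −0.25 in type 1 alveolar-like cells, with each interval below 0. Dnajb11 lay at −0.28 (−0.38 to −0.18) and Dnajb9 at −0.13 (−0.22 to −0.03) in endothelial-like cells. The nucleotide exchange factor Hyou1 and the translocon subunit Sec61b had intervals that included 0 in all 5 classes. For Sec61b the interval in endothelial-like cells, −0.11 to 0.08, leaves room only for small differences between these 2 libraries.

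Of the 6 degradation genes, which pull misfolded protein back out of the ER, none was more than 0.5 lower in any class, beside 4.60% to 11.0% of all genes. Herpud1 passed 0.5 upwards in fibroblast-like cells, 1 of 6 beside 18.3% of all genes, and no other did in any class. Herpud1, a membrane adaptor of that machinery, stood at 122 CPM (WT) and 177 CPM (KI) in fibroblast-like cells, a ratio of 0.54 (0.38 to 0.71), which became 0.45 with the median ratio of all genes set to 0, and at 229 and 307 CPM in endothelial-like cells, a ratio of 0.42 (0.36 to 0.48). In the other 3 classes its ratio lay between 0.03 and 0.12 with intervals that included 0. Edem1, which trims mannose from failed glycoproteins, had a ratio of 0.26 (0.10 to 0.42) in endothelial-like cells. Derl2, a subunit of the exit channel, had one of 0.32 (0.09 to 0.55) in type 2 alveolar-like cells. Derl1, another subunit of that channel, had a ratio of −0.15 (−0.24 to −0.07) in endothelial-like cells, the direction of the chaperones, and intervals including 0 elsewhere. Sel1l and its ligase Syvn1 had intervals including 0 in all 5 classes.

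Of the sensors, Ern1 read higher in KI endothelial-like cells, at 29.7 CPM (WT) and 42.2 CPM (KI), a ratio of 0.51 (0.34 to 0.67). It also lay above 0 in the other classes, from 0.19 to 0.57, with intervals that included 0 there. Atf6 had a ratio of −0.25 (−0.43 to −0.08) in fibroblast-like cells, from 140 and 118 CPM, and intervals including 0 elsewhere. Eif2ak3 was sparse, with 39 UMIs or more over both libraries in each class, and every interval of it included 0. Transcript levels do not report whether a sensor is active.

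Xbp1, the factor made by IRE1 alpha splicing, had a ratio below 0 in all 5 classes, as did Manf, Pdia3 and Dnajc3, and passed 0.5 in fibroblast-like, smooth muscle or pericyte-like and type 2 alveolar-like cells. Its level was 225 CPM (WT) and 160 CPM (KI) in endothelial-like cells, a ratio of −0.50 (−0.57 to −0.42). Fibroblast-like cells held 404 and 251 CPM, a ratio of −0.69 (−0.80 to −0.58), and smooth muscle or pericyte-like cells 220 and 148 CPM, a ratio of −0.57 (−0.81 to −0.33). In type 2 alveolar-like cells it read 159 and 109 CPM, a ratio of −0.54 (−0.68 to −0.40), and in type 1 alveolar-like cells 128 and 92.7 CPM, a ratio of −0.47 (−0.81 to −0.14). These 5 intervals lie below 0 and overlap one another in all pairs but endothelial-like against fibroblast-like cells. Counts near the 3′ end do not tell the spliced from the unspliced messenger. With equal cluster weights in both libraries the fibroblast-like ratio became −0.47.

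Atf4, the factor downstream of PERK, differed less than Xbp1. Its ratio was −0.11 (−0.16 to −0.06) in endothelial-like, −0.32 (−0.44 to −0.20) in fibroblast-like, −0.33 (−0.53 to −0.13) in smooth muscle or pericyte-like, −0.17 (−0.27 to −0.07) in type 2 alveolar-like and 0.13 (−0.13 to 0.38) in type 1 alveolar-like cells. The smooth muscle or pericyte-like ratio became 0.01 with the stricter cell filter, the type 2 alveolar ratio 0.07 when CPM was taken per cell and averaged, and the type 1 alveolar ratio −0.01 under the latter. Atf4 is known to be governed mainly at translation, which these counts do not read. Ddit3, whose product CHOP can promote cell death, pointed the other way. It stood at 37.4 CPM (WT) and 60.3 CPM (KI) in fibroblast-like cells, a ratio of 0.69 (0.40 to 0.99), at 0.24 (0.03 to 0.47) in type 2 alveolar-like cells, and had intervals including 0 in the other 3 classes.

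Targets and feedback genes of the ATF4 arm were mostly sparse. In endothelial-like cells 1 of 5 measured was higher, beside 12.9% of all genes. Fibroblast-like cells had 3 of 4 higher, beside 18.3%, and smooth muscle or pericyte-like cells 1 of 2, beside 15.0%. Type 2 alveolar-like cells had 2 of 5 higher, beside 14.7%. None was lower in these classes, beside 4.60% to 8.26% of all genes. Type 1 alveolar-like cells had 1 of 3 higher, beside 21.3%, and 1 lower, beside 11.0%. Asns, which makes asparagine, stood at 41.9 CPM (WT) and 70.0 CPM (KI) in endothelial-like cells, the highest ratio of any member there at 0.74 (0.61 to 0.87). In fibroblast-like cells Asns rested on 26 and 44 UMIs, a ratio of 0.76 (0.03 to 1.52). Sesn2, a stress-induced regulator of growth signalling, had a ratio of 0.31 (0.11 to 0.51) in endothelial-like, 0.73 (0.10 to 1.38) in fibroblast-like, 0.76 (0.13 to 1.43) in smooth muscle or pericyte-like and 0.80 (0.13 to 1.48) in type 1 alveolar-like cells. The last 3 rest on 35 and 58, 31 and 67, and 36 and 43 UMIs. With CPM averaged over cells the Sesn2 ratio was 0.10 in smooth muscle or pericyte-like and 0.29 in type 1 alveolar-like cells, under the threshold in both. Trib3, a pseudokinase that damps ATF4, gave 59 UMIs in WT and 113 in KI type 2 alveolar-like cells, a ratio of 0.71 (0.25 to 1.19), which became 0.09 with the stricter cell filter. Ppp1r15a, the phosphatase subunit that restores translation, was lower in KI type 1 alveolar-like cells, at 191 CPM (WT) and 134 CPM (KI), a ratio of −0.50 (−0.79 to −0.23), while type 2 alveolar-like cells held 102 and 126 CPM, a ratio of 0.31 (0.16 to 0.46). In endothelial-like cells its ratio of 0.12 (0.04 to 0.21) became −0.15 with equal cluster weights. Chac1, which degrades glutathione, gave 114 and 139 UMIs in endothelial-like cells, a ratio of 0.35 (−0.02 to 0.72).

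**Figure D2:**
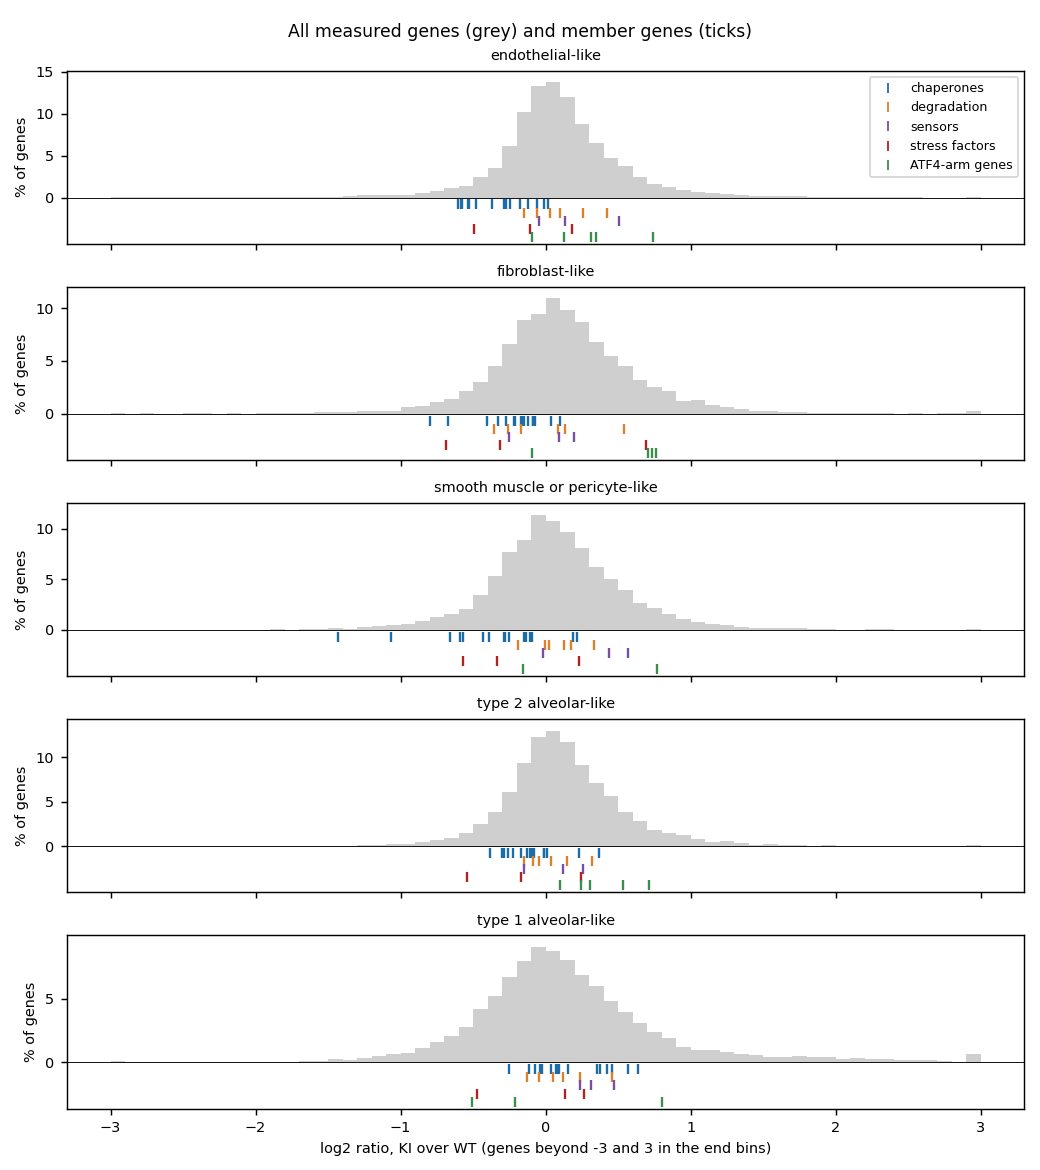
Share of measured genes (y axis, percent) by log2 ratio of KI over WT (x axis) in each class, in grey, with the 33 genes as ticks coloured by role. In endothelial-like and smooth muscle or pericyte-like cells most chaperone ticks lie left of 0, with medians of −0.28 in both, while all genes peak near 0; Pdia4 and Dnajb9 lie to its right in the latter.

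Immediate-early and heat-shock genes, which respond to tissue dissociation, were summed as a sign of handling. Over 28 such genes the level was 13520 CPM (WT) and 15940 CPM (KI) in endothelial-like cells, 21070 and 20430 in fibroblast-like cells, 23100 and 22690 in smooth muscle or pericyte-like cells, 21550 and 25660 in type 2 alveolar-like cells and 13900 and 12020 in type 1 alveolar-like cells. The heat-shock genes within that sum stood at 4797 CPM (WT) and 5461 CPM (KI) in endothelial-like cells. They stood at 6132 and 5255 CPM in fibroblast-like, and at 8217 and 7661 CPM in smooth muscle or pericyte-like cells. In type 2 alveolar-like cells they held 11070 and 13390 CPM, and in type 1 alveolar-like cells 5796 and 5580 CPM. Haemoglobin RNA stood at 36.0 CPM (WT) and 246 CPM (KI) in endothelial-like cells, 4.52 and 2068 in fibroblast-like cells, 4.21 and 682 in smooth muscle or pericyte-like cells and 1742 and 146 in type 1 alveolar-like cells. With haemoglobin, mitochondrial and ribosomal protein genes left out of the totals, the ratio of Hspa5 was −0.57 in endothelial-like and −0.66 in fibroblast-like cells. The part of handling in these values was not tested.

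To see whether a class mean hid different cell states, the ratios were also taken in each of the 17 clusters of these classes with at least 30 cells per library. Hspa5 had a ratio and an interval below 0 in 15 of the 17, the exceptions being the 2 type 1 alveolar-like clusters. Manf and Xbp1 lay below 0 in all 17, with 13 and 12 intervals wholly below 0. Of the 16 members measured in every cluster, these 2 were below 0 throughout, beside 0.978% of the 1636 genes measured in every cluster. Members below 0 in at least 15 clusters were Hspa5, Hsp90b1, Calr, Pdia6, Manf, Dnajc3 and Xbp1, 7 of 16, beside 6.91% of those genes. Herpud1 alone was above 0 in at least 15, beside 5.38%. Ern1 lay above 0 in all 13 clusters in which it was measured, 4 of them with an interval above 0. Clusters share their library, so these counts are no replicates.

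**Figure D3:**
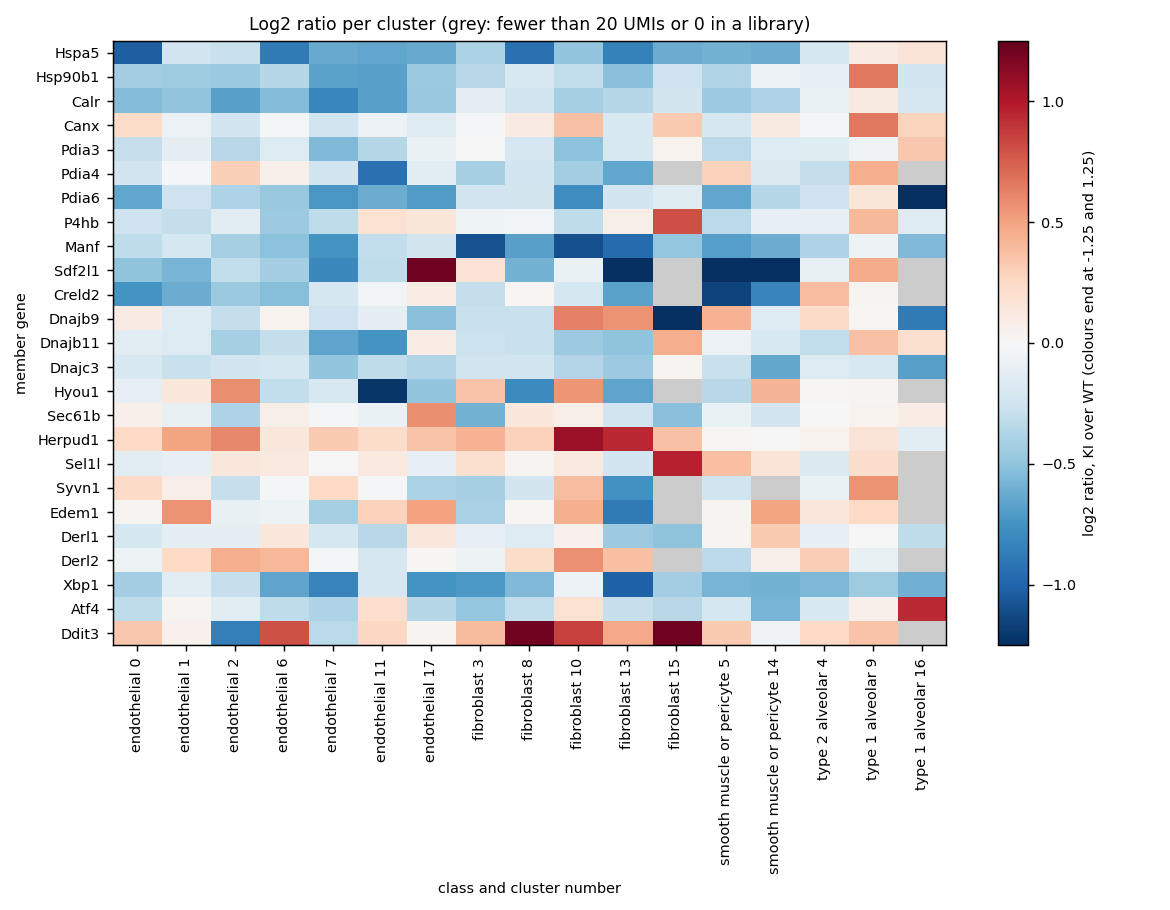
Log2 ratio of KI over WT (colour, blue lower and red higher in KI) for the 25 chaperone, degradation and stress factor genes (rows) in 17 clusters (columns, named by class and cluster number), with grey where fewer than 20 UMIs were counted or a library had 0. The rows of Hspa5, Manf and Xbp1 are blue across nearly all columns and the row of Herpud1 is mostly red.

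Among fibroblast-like clusters the members varied more. A cluster led by Fgl2, Mmp2 and Cxcl14 had the largest Hspa5 difference, from 1695 CPM (WT) to 890 CPM (KI), a ratio of −0.93 (−1.03 to −0.83), and a Ddit3 level of 22.3 CPM (WT) and 51.3 CPM (KI), a ratio of 1.20 (0.56 to 1.88). One led by Slc39a14, Thbs1 and Serpina3n, with 288 WT and 122 KI cells, had the lowest Manf ratio of any cluster, −1.10, and the highest Herpud1 ratio, 1.08, while Xbp1 lay at −0.08. One led by Dcn, Clec3b and Ccl11 had the lowest Xbp1 ratio, −1.01, from 346 CPM (WT) and 172 CPM (KI). Pericyte-like and smooth muscle-like clusters had nearly equal Hspa5 ratios of −0.60 and −0.62.

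Within the endothelium, general capillary cells (cluster 0, led by Plvap and Gpihbp1) showed the largest Hspa5 difference, from 659 CPM in WT to 323 in KI, a ratio of −1.03 (−1.11 to −0.95). Aerocytes, the large Car4-rich capillary cells of gas exchange, showed a smaller one, from 772 to 655 CPM in cluster 1, a ratio of −0.24 (−0.30 to −0.17), and from 633 to 521 CPM in cluster 2, a ratio of −0.28 (−0.45 to −0.11). The general capillary and aerocyte intervals do not overlap, although the difference between them has no replicate check. Venous cells (cluster 11, led by Slc6a2 and Vwf) had a ratio of −0.65 (−0.81 to −0.49). Calr, in contrast, had overlapping ratios in general capillary cells, at −0.54 (−0.62 to −0.47), and in the aerocyte clusters, at −0.49 (−0.58 to −0.41) and −0.68 (−0.92 to −0.44).

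In both aerocyte clusters Herpud1 and Asns had intervals above 0. Herpud1 stood at 410 CPM (WT) and 576 CPM (KI) in cluster 1 and at 389 and 589 in cluster 2, ratios of 0.49 (0.41 to 0.57) and 0.60 (0.42 to 0.78). General capillary cells held 116 and 138 CPM of it, a ratio of 0.25 (0.10 to 0.41). Asns likewise stood at 80.2 and 164 CPM in cluster 1, a ratio of 1.03 (0.86 to 1.20), and at 54.2 and 87.5 CPM in cluster 2, a ratio of 0.69 (0.20 to 1.20), against 17.0 and 21.1 CPM in general capillary cells, a ratio of 0.31 (−0.10 to 0.72). Both genes were thus several times higher in aerocytes than in general capillary cells in each library.

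The make-up of the endothelial class differed between the libraries. A cluster led by Tmem252, Cxcl12 and Inhbb held 536 WT and 224 KI cells, and one led by Ier3, Atf3 and Hspa1a 245 and 363. Xbp1 stood at 408 CPM (WT) and 259 CPM (KI) in the former. Without that cluster the endothelial ratio of Xbp1 was −0.37, and without the latter −0.46. For Hspa5 these values were −0.56 and −0.58. With equal cluster weights in both libraries 3 members of the endothelial class, not 5, were more than 0.5 lower.

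**Figure D4:**
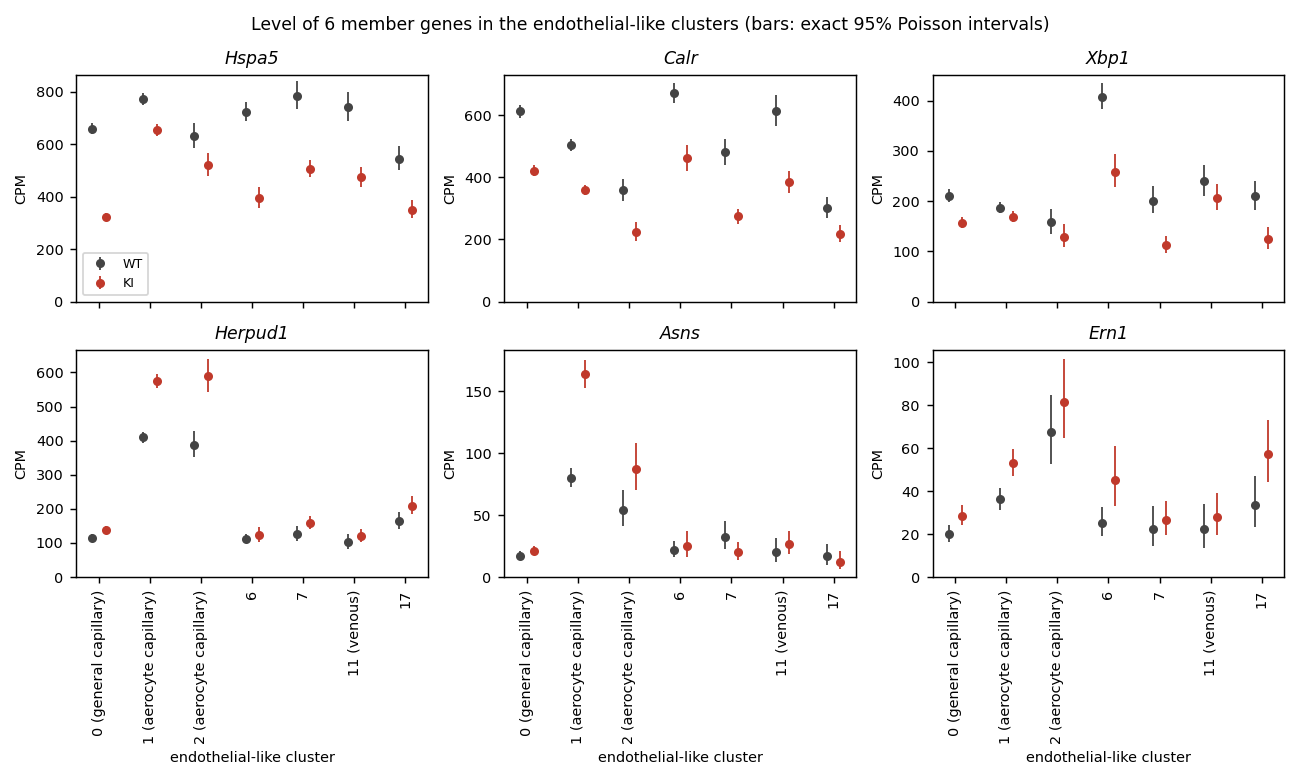
Level in CPM (y axis, from 0) of 6 member genes in the 7 endothelial-like clusters (x axis, by cluster number and subtype) in WT (grey) and KI (red), with exact 95% Poisson intervals as bars. The libraries lie farthest apart for Hspa5 in cluster 0, and Herpud1 and Asns are highest in the aerocyte clusters 1 and 2.

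Across cell types, few of the 33 genes marked a class. At least 2 times the mean level of the other 4 classes in both libraries was reached by 1 member in endothelial-like cells (Chac1, beside 13.1% of 15384 genes), 1 in fibroblast-like cells (Atf6, beside 11.0%), 1 in smooth muscle or pericyte-like cells (Ppp1r15a, beside 9.62%), 3 in type 2 alveolar-like cells (Dnajb9, Sec61b and Trib3, beside 7.85%) and 2 in type 1 alveolar-like cells (Herpud1 and Asns, beside 7.83%). The shares of the 33 genes were below these percentages in 4 of the classes and near it in type 2 alveolar-like cells. Sec61b stood at 317 CPM (WT) and 315 CPM (KI) in type 2 alveolar-like cells, 2.66 and 2.74 times the mean of the other classes, and Dnajb9 at 202 and 237 CPM, 2.23 and 2.68 times. Herpud1 held 538 and 584 CPM in type 1 alveolar-like cells, next to 387 and 396 in type 2 alveolar-like cells and 122 to 307 in the rest. Atf6 was highest in fibroblast-like cells, at 140 and 118 CPM.

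Hspa5 was ordered differently in the 2 libraries. In WT, fibroblast-like and smooth muscle or pericyte-like cells were highest and did not differ beyond counting error, followed by endothelial-like cells and then by type 2 and type 1 alveolar-like cells, whose intervals overlapped. In KI, the first pair stayed on top, but type 1 alveolar-like cells (595 CPM) stood above type 2 alveolar-like (514) and endothelial-like cells (476).

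Smaller classes gave levels only. Ddit3 was highest in neutrophil-like cells, at 439 CPM in WT (81 UMIs, interval 349 to 545) and 455 in KI (11 UMIs, interval 227 to 815), where the compared classes held 25.3 to 60.3 CPM. Ppp1r15a was also highest there, at 932 CPM in WT (172 UMIs) and 787 in KI (19 UMIs). The KI value rests on 11 cells, against 96 in WT. Macrophage or monocyte-like cells (42 and 43 cells) held 1011 and 803 CPM of Hspa5, and airway epithelial-like cells (65 and 45 cells) 519 and 438 CPM. Xbp1 stood at 104 CPM (WT) and 21.1 CPM (KI) in B-like cells, from 12 and 2 UMIs.

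**Figure D5:**
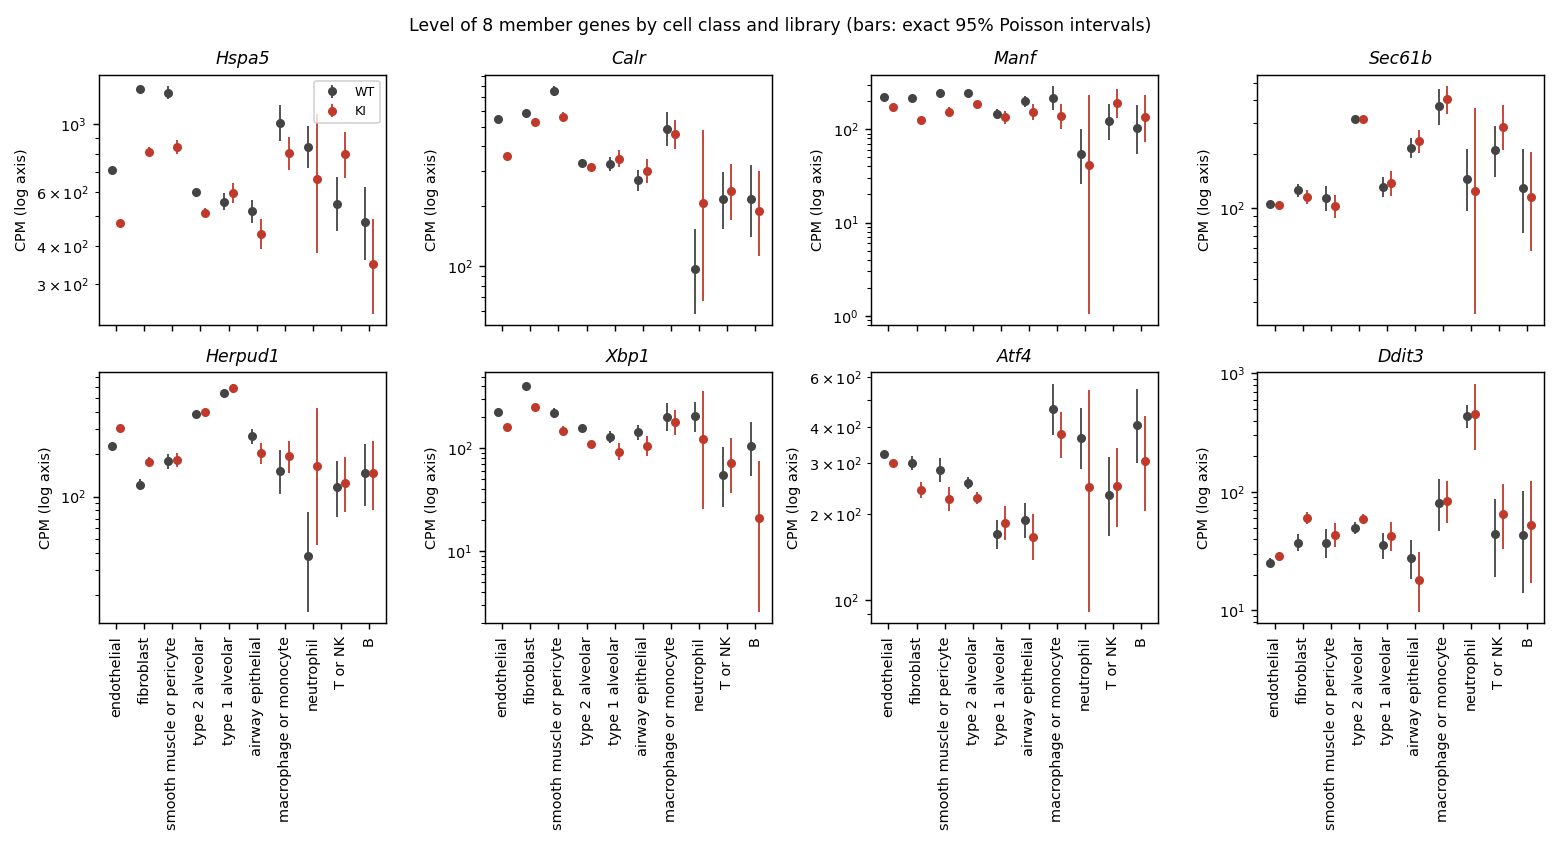
Level in CPM (y axis, log scale) of 8 member genes in 10 cell classes (x axis) in WT (grey) and KI (red), with exact 95% Poisson intervals as bars. The KI point of Xbp1 lies under the WT point in each of the first 5 classes, which were compared, and Ddit3 is highest in neutrophil-like cells, at 439 CPM (WT) and 455 CPM (KI).

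Beyond the 33 genes, 109 other genes of the pathway were counted by role. Of 43 folding, translocation and glycosylation genes measured in endothelial-like cells, 1 was lower and 0 higher, beside 5.97% and 12.9% of all genes. Their median was −0.11, beside 0.06 for all genes, and 30 lay below 0. Intervals lay wholly below 0 for 20, beside 17.0%, and wholly above 0 for 5, beside 27.6%. Fibroblast-like cells had 1 and 0 of 43 (median −0.04), beside 7.62% and 18.3%. Smooth muscle or pericyte-like cells had 2 and 2 of 41 (−0.02), beside 8.26% and 15.0%. Type 2 alveolar-like cells had 0 and 0 of 43 (−0.04), beside 4.60% and 14.7%. Type 1 alveolar-like cells had 0 and 7 of 41 (0.16), beside 11.0% and 21.3%. The medians of the 16 chaperones given above were −0.28, −0.16, −0.28, −0.10 and 0.09 in the same order of classes. Other degradation genes gave 0 lower and 2 higher of 17 in endothelial-like and in fibroblast-like cells. All genes gave 5.97% and 12.9% in the former and 7.62% and 18.3% in the latter. Smooth muscle or pericyte-like cells had 0 and 4 of 17, beside 8.26% and 15.0%. Type 2 alveolar-like cells had 0 and 1 of 17, beside 4.60% and 14.7%, and type 1 alveolar-like cells 3 and 1 of 16, beside 11.0% and 21.3%. Selenos, which links the degradation machinery to the membrane, was among the 3 lowest in 4 of the 5 classes when only the other pathway genes with at least 50 CPM in either library were ranked, at −0.39 (−0.47 to −0.32) in endothelial-like and −0.76 (−0.97 to −0.55) in type 1 alveolar-like cells.

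Other targets of ATF4 and CHOP had medians above 0 in each class. In endothelial-like cells 12 of 30 measured were more than 0.5 higher, beside 12.9% of all genes, and 3 lower, beside 5.97%, with a median of 0.31. In fibroblast-like cells 10 of 30 were higher, beside 18.3%, and 1 lower, beside 7.62%, with a median of 0.20. In smooth muscle or pericyte-like cells 6 of 25 were higher, beside 15.0%, and 0 lower, beside 8.26%, with a median of 0.19. Type 2 alveolar-like cells had 8 of 29 higher, beside 14.7%, and 1 lower, beside 4.60% (median 0.29). Type 1 alveolar-like cells had 9 of 23 higher, beside 21.3%, and 0 lower, beside 11.0% (median 0.34). Ddit4, an inhibitor of mTOR signalling, stood at 90.2 CPM (WT) and 138 CPM (KI) in endothelial-like cells, a ratio of 0.62 (0.53 to 0.71), and Atf3, a stress factor that is also an immediate-early gene, at 0.57 (0.50 to 0.65). Cebpb, a factor of inflammatory and stress responses, was lower, at 347 and 209 CPM, a ratio of −0.73 (−0.79 to −0.67), as was Wars, a tRNA synthetase, at −0.60 (−0.69 to −0.52). Among those with at least 50 CPM in either library, the highest in type 1 alveolar-like cells were Nupr1 at 2.96, from 23 and 122 UMIs, Gdf15 at 1.95 (1.48 to 2.44) and Atf5 at 1.79 (1.12 to 2.50). Nupr1 stood at 351 and 475 CPM in type 2 alveolar-like cells and at 13.1 and 102 CPM in type 1 alveolar-like cells. The 9 type 2 alveolar markers summed to 239600 CPM (WT) and 218700 CPM (KI) in the former and to 1163 and 5059 CPM in the latter. The part of that RNA in the Nupr1 values was not tested.

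Set beside the sequences shown above, 4 of the 8 members with an ERSE were more than 0.5 lower in endothelial-like cells, beside 5.97% of all genes. They were Calr, Creld2, Hspa5 and Pdia6, and the median over the 8 was −0.51. The other 4 were Hsp90b1 at −0.48, Dnajc3 at −0.29, Canx at 0.02 and Syvn1 at 0.03. Of the genes that are no members but hold the same letters, 9 were measured in endothelial-like cells, with a median of 0.15. Of these 9, 1 was lower, beside 5.97% of all genes, and 1 higher, beside 12.9%. The lower one, Xlr3b, rests on 18 and 12 UMIs, with an interval of −1.71 to 0.61, and the higher one, Gm6566, on 39 and 64. Whether the element bears on any of these ratios was not tested. Sdf2l1, lower in endothelial-like and smooth muscle or pericyte-like cells, and Xbp1, with ratios below 0 in all 5 classes, had no ERSE in this window, while Herpud1, with an ERSE-II, had a ratio of 0.42 in endothelial-like cells. In the other classes the 8 members with an ERSE had medians of −0.18 in fibroblast-like, −0.41 in smooth muscle or pericyte-like, −0.09 in type 2 alveolar-like and 0.09 in type 1 alveolar-like cells.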

How the data were processed

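The deposited files hold raw counts of UMIs per gene and barcode, 1 matrix per library, per the file headers and the whole-number values. The submitters' processing notes list the genome mm10, Seurat 2.3.4, Cell Ranger 2.0 and R 3.5.3, whereas the matrix headers give software version 3.0.2. Per the labels' protocols, the Chromium kit counts 3′ ends of transcripts. No barcode held fewer than 500 UMIs.

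Barcodes with at least 200 genes and at most 10% mitochondrial UMIs were used (8417 WT and 7161 KI). Scrublet in scanpy 1.11.5 marked 0 doublets at its automatic threshold, so the barcodes of a library with the highest scores were marked and left out at a rate of 0.8% per 1000 barcodes (877 and 665). Counts scaled to 10000 UMIs per cell, 2000 variable genes per library without the 33 genes, Y-linked genes and immune receptor segments, 30 principal components and 15 neighbours gave Leiden clusters at resolution 1. A cluster took the class with the highest mean log2 marker score (pseudocount 50 CPM), if at least 3 markers were each found in 10% of its cells and the score was at least 0.5. This scoring rule was adjusted after clusters had been seen, and erythroid markers were dropped from it because haemoglobin RNA lay in clusters of every kind. Unnamed clusters held 194 WT and 284 KI cells. Names rest on markers alone, hence "-like", and may differ from those of the study.

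UMIs were summed per library and class. Ratios carry exact conditional binomial and levels exact Poisson 95% intervals (scipy 1.17.1), for counting error only. The interval was tested on simulated Poisson counts without spread between cells or animals, so that test checks the computation only. No test was run, since each group is 1 library. In each class and role group the 3 members farthest from 0 were named, with Hspa5, Xbp1, Atf4 and Ddit3 throughout. Of the other pathway genes the 3 highest and 3 lowest with at least 50 CPM were eligible. Members, lists, markers and thresholds were chosen with earlier results of these data known. Gene names come from the deposited tables, and promoter sequences and their positions from RefSeq on GRCm38.p6. Protein sequences were not used here.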

Additional observations from a re-analysis of the deposited data

Results flagged for a closer look

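Several genes had a ratio whose counting interval lay on one side of 0 in one class and on the other side in another. With 1 library per genotype the difference between classes was not tested. Hsp90b1 had log2 ratios of −0.48 in endothelial-like, −0.21 in fibroblast-like, −0.29 in smooth muscle or pericyte-like and −0.09 in type 2 alveolar-like cells, but 0.57 in type 1 alveolar-like cells. P4hb, the disulfide isomerase PDI, read −0.24 in endothelial-like and −0.11 in type 2 alveolar-like cells against 0.35 in type 1 alveolar-like cells. The type 1 alveolar values come from the class in which KI held more marker RNA of other classes, and the part of that RNA was not tested. Creld2 stood at −0.58 in endothelial-like and −1.06 in smooth muscle or pericyte-like cells and at 0.37 in type 2 alveolar-like cells. Dnajb9, a co-chaperone that type 2 alveolar-like cells held at the highest level, read −0.13 in endothelial-like and 0.23 in type 2 alveolar-like cells. The latter became 0.02 with the stricter cell filter. Ppp1r15a read −0.50 in type 1 alveolar-like cells, 0.12 in endothelial-like and 0.31 in type 2 alveolar-like cells. The endothelial value of Ppp1r15a turned to −0.15 with equal cluster weights, and the type 2 alveolar values of Hsp90b1 and P4hb turned to 0.02 as mean of per-cell CPM and to 0.07 with the stricter cell filter.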

How the results depend on the processing

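No paired analysis was possible because each genotype has 1 library, and for the same reason no library could be left out. Of 1955 values of single members under the alternatives, 1882 stayed inside the counting interval of the reported ratio. This count includes alternatives that cannot move a single ratio. Those are another UMI minimum and, in classes without such a cluster, leaving out clusters of low depth. Sparse members also have wide intervals, so the count is no measure of stability. A single ratio past 0.5 changed sign: Chac1 in type 2 alveolar-like cells, at −0.62 with the stricter cell filter (at least 500 genes, at most 5% mitochondrial UMIs). Of the 75 ratios whose interval excluded 0, 7 changed sign, each under 1 alternative: Atf4 in smooth muscle or pericyte-like and type 2 alveolar-like cells, Hsp90b1, P4hb and Pdia3 in type 2 alveolar-like, Pdia6 in fibroblast-like and Ppp1r15a in endothelial-like cells. Of the 84 whose interval included 0, 48 did under at least 1. Over its alternatives the ratio of Hspa5 ranged from −0.64 to −0.51 in endothelial-like, −0.77 to −0.55 in fibroblast-like and −0.63 to −0.52 in smooth muscle or pericyte-like cells, and that of Xbp1 was below 0 in every class under every alternative, from −0.78 to −0.34. Of 164 counts of members, 131 stayed within 1.5 times the reported one. The rest follow. In endothelial-like cells the count of higher members was 1 with the median ratio set to 0, as mean of per-cell CPM, with no cell filter, at resolution 0.5, with libraries clustered alone, with equal cluster weights, and without the cluster led by Tmem252, which was an alternative chosen after seeing the data, as was leaving out the cluster led by Ier3. The count of lower members there was 3 with equal weights. In fibroblast-like cells the higher members were 3 with no cell filter and 2 with a minimum of 100 UMIs. With that minimum, smooth muscle or pericyte-like cells had 0 higher members. Higher members of type 2 alveolar-like cells were 1 with the median set to 0, with doublets kept, with either cell filter and with 100 UMIs. With the stricter filter that member was Creld2 at 0.82, while Trib3 and Chac1 read 0.09 and −0.62. Lower members in type 2 alveolar-like cells were 0 as mean of per-cell CPM and 2 with the stricter filter. In type 1 alveolar-like cells lower members were 2 with the median set to 0, as mean of per-cell CPM, with either cell filter and with a minimum of 1 UMI, and 0 without mitochondrial, ribosomal protein and haemoglobin genes, with doublets kept, with libraries clustered alone and with equal weights. Higher members there were 7 with the stricter filter, 6 with none and 5 with libraries clustered alone. Members at least 2 times above the other classes were 1 in type 1 alveolar-like cells as mean of per-cell CPM and with doublets kept, and 2 in fibroblast-like cells with libraries clustered alone. The cause of these moves was not tested. Depth limits the sparse members: Trib3 in fibroblast-like cells, with 8 and 13 UMIs, has an interval from −0.68 to 2.18.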
